A study of Glycine max with 12 samples.

Results

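The untransformed background of a soybean overexpression study is described here: seeds of the wild type, labelled Jack, with no engineered gene. The members are the 3 libraries whose genotype label is wild type, of 12 libraries in the study. The other 9 come from seeds that overexpress GmZF351, GmZF392 or GmNFYA and are not analysed here. All seeds carry the stage label H3, which the labels do not explain, and RNA was extracted with TRIzol for Illumina libraries. The labels give no plant, pod or growth details and do not say whether the 3 libraries came from separate plants, so the spread between them may be technical.

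A developing soybean seed consists of an embryo, whose cotyledons later hold most of the protein and oil, a seed coat of maternal tissue that passes sugars and amino acids to the embryo, and a transient endosperm. In the course of filling, the embryo changes from cell division to the making of storage globulins, trypsin inhibitors, oleosins and triacylglycerol, and at the end it makes proteins linked to drying. The seed coat meanwhile lays down cell wall proteins and proanthocyanidins. Whole seeds mix these tissues, and in such bulk RNA fewer cells of a type and less RNA per cell cannot be told apart.

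Levels are given in TPM, the count per base of exon scaled to 1000000 in each library, so that genes of different length can be compared, and 3 values in a row are those of libraries 1, 2 and 3. The libraries held 19270208, 22652420 and 17902216 counted fragments. Where a gene had no count, up to 3 counts could have been missed through counting error, which for LB1, a gene of 682 exon bases, is 0.293 to 0.389 TPM. With 1 group there is no contrast and no test in what follows, and a difference between genes is set against the range over the 3 libraries.

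The transcriptome was broad. Of 47095 genes in the table, 29436 (62.5%) stood at 1 TPM or more in every library, 14362 at 10 TPM or more, 1549 at 100 TPM or more and 31 at 1000 TPM or more. No fragment was counted in any library for 6005 genes (12.8%). It took 1640, 1333 and 1525 genes to reach 50% of the TPM in libraries 1, 2 and 3, a mean of 1499 ± 155 (SD, n = 3). Library 2 was the most concentrated and library 1 the least. The 10 most abundant genes held 3.95 ± 0.154% of the TPM (SD, n = 3), the top 100 held 13.3 ± 0.478% and the top 1000 held 42.9 ± 1.80%. No gene reached 1% of a library. The same 9 genes were in the top 10 of every library, 25 in the top 30, 66 in the top 100 and 870 in the top 1000.

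**Figure D1:**
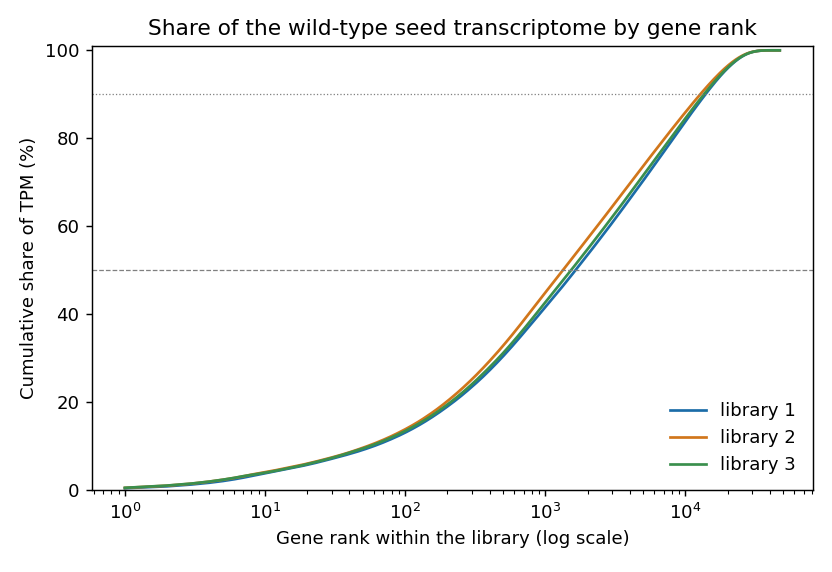
Cumulative share of TPM (%) against gene rank within each library (log scale), 1 line per wild-type library. Dashed and dotted lines mark 50% and 90% of the TPM; library 2 reaches 50% with 1333 genes and library 1 with 1640.

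Names come from RefSeq and cover the transcriptome unevenly. A RefSeq protein-coding gene was paired with 38292 genes (81.3%), which held 94.3% of the TPM. Only 2205 genes have a symbol of their own, and these held 11.5% of the TPM, so the gene groups below are partial. Among the 30 most abundant genes 11 have a symbol, and 1, Glyma.19G002300, has no RefSeq pair. The most abundant genes were short, with a median exon length of 950.5 bases in the top 100 against 1866 bases over the genes at 1 TPM or more in every library.

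Marker genes were set beside the label seed, from lists chosen with earlier results of these data known. Of 12 embryo markers, all stood at 1 TPM or more in every library, beside 62.5% of all genes. All 9 seed coat markers did too. The embryo markers summed to 2556, 3772 and 3984 TPM and the seed coat markers to 5003, 4709 and 4594 TPM. Listed markers of both tissues were thus detected in each library. The seed coat sum rests largely on peroxidase genes, taken in by symbol: PRX2 alone held 51.1% of it, and PRX2B averaged 1478 TPM. A single endosperm marker could be matched, ICE1 at 18.7, 16.2 and 19.4 TPM, too few to judge that tissue. Of 20 root nodule markers only 3 reached 1 TPM in every library and 13 had no count in any, beside 62.5% and 12.8% of all genes. Leghemoglobin, the oxygen carrier of nodules, was at 0 counts for LB1, LB2 and LB3, and LB4 was at 0.372 TPM in library 3 alone. Among those nodulin symbols NOD33 stood at 42.0 ± 2.72 TPM and N-26 at 28.5 ± 1.56 TPM (SD, n = 3). Of 11 flower and pod markers 8 stood at 1 TPM or more, not far from the 62.5% of all genes. They were led by AGL11, a MADS-box gene whose Arabidopsis namesake acts in ovule and seed coat identity, at 791, 622 and 618 TPM. AP1 and AG1 lay at the bottom of that list, with no count for AP1 and 0.0163 TPM on average for AG1. Other members were well expressed: 7 of the 11 stood at 10 TPM or more in every library and 3 at 100 TPM or more. Over all genes these shares were 30.5% and 3.29%.

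Library 1 stood apart from the other two. Among 15992 genes with a mean of 10 TPM or more, it was the library farthest from the others in 8544 (53.4%), against 4155 for library 2 and 3293 for library 3. Over these genes the Spearman correlation of log2 TPM, a description across genes that are not independent, was 0.934 between libraries 1 and 2, 0.926 between 1 and 3, and 0.978 between 2 and 3.

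In TPM the most abundant transcript was that of a seed coat gene. SCB1 (Glyma.07G176700, chromosome 7, 33325771 to 33328894), which encodes a BURP-domain protein of the seed coat, stood at 3913, 5365 and 5565 TPM, a mean of 4948 ± 902 TPM (SD, n = 3). It ranked 1 in libraries 2 and 3 and 5 in library 1, where its level was lowest. The second gene, LOC100527509 (Glyma.19G186100, chromosome 19, 44903986 to 44905291), carries the synonym TIP1-8 of the tonoplast water channels, which let water cross the vacuole membrane. It stood at 4665, 4572 and 4624 TPM, within 1.01% CV, one of the 10 steadiest genes above 100 TPM. SSTP-1 (Glyma.06G022600) followed at 4268, 4277 and 5127 TPM. By counts, with no division by exon length, SSTP-1 was above SCB1 in every library, at 148645, 184114 and 166093 fragments against 72265, 122455 and 95584.

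KTI3 (Glyma.08G341500, chromosome 8, 45109830 to 45110755), the Kunitz trypsin inhibitor of soybean seeds, ranked 4 at 4195, 4656 and 4273 TPM. The cell wall genes PRP1 and PRP3, which encode proline-rich proteins, were in the top 10 as well. PRP1 (Glyma.09G092700) stood at 3937, 3912 and 4428 TPM and PRP3 (Glyma.11G154900) at 2933, 2899 and 2829 TPM. PRX2 (Glyma.17G013600), a peroxidase gene, stood at 2501, 2439 and 2373 TPM, and PRX2B at 1509, 1479 and 1447 TPM. Their libraries differed by little: the CVs were 2.61% and 2.1%. The remaining top 10 genes, LOC547938, LOC100306510 and LOC100101848, have no descriptive name in the tables used here. Their means were 4337 ± 623, 3896 ± 61.7 and 3378 ± 645 TPM (SD, n = 3).

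The next 20 ranks included genes of general cell function. TEFS1, translation elongation factor 1-alpha, stood at 2481, 2386 and 2397 TPM. A second elongation factor, EF4, stood at 1507, 1315 and 1287 TPM. LOC100799042 and LOC100791065, ubiquitin genes by synonym, averaged 1669 ± 102 and 1665 ± 19.1 TPM. LOC548038, with the synonym TCTP (translationally controlled tumour protein), averaged 1802 ± 170 TPM. Chlorophyll-binding proteins of the light-harvesting complex were as abundant: CAB3 stood at 1867, 2235 and 2188 TPM and LOC100805310, a gene with the same synonym, at 1566, 1526 and 1447 TPM. MIPS (Glyma.11G238800, chromosome 11, 38197875 to 38200890), the inositol phosphate synthase that begins the path to phytate, ranked 15 at 2074, 1976 and 2086 TPM.

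The order within the top 30 was only partly resolved. Of 29 neighbouring pairs in the ranking, the ranges over the 3 libraries overlapped in 25 and were separate in 4. The separate pairs were LOC100306510 above LOC100101848, PRP3 above PRX2, MIPS above LOC100798239, and LOC100791065 above LOC100805310. In 18 of the 30 genes the highest library was under 1.2 times the lowest. In 2 it was over 2 times. LOC100796543 stood at 782, 1738 and 1763 TPM, and LOC100500216 at 2076, 937 and 873 TPM. Library 1 was thus the low one for the first and the high one for the second.

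**Figure D2:**
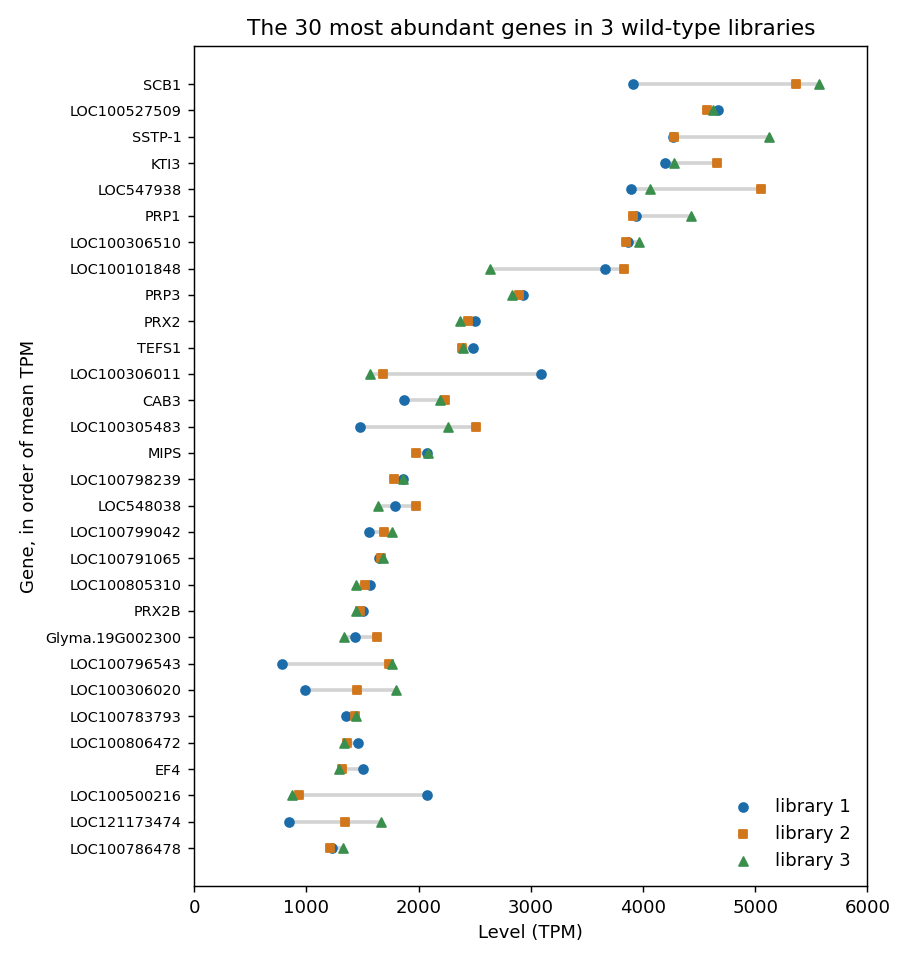
TPM of the 30 most abundant genes in each of the 3 wild-type libraries (linear axis), in order of mean TPM; grey bars span the lowest to the highest library. SCB1, LOC100306011, LOC100796543 and LOC100500216 have wide bars set by library 1, while LOC100527509, PRX2 and TEFS1 have narrow ones.

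Storage protein transcripts were modest beside KTI3. The 12 genes of the storage list summed to 2144, 1741 and 1728 TPM. LE1, the seed lectin, led at 594, 555 and 561 TPM. A1, albumin-1, stood at 664, 447 and 350 TPM, and CG-1, a beta-conglycinin (7S globulin) gene, at 450, 390 and 459 TPM. The glycinin (11S globulin) genes were low: the 5 GY genes summed to 52.0, 53.4 and 62.2 TPM. GY1 stood at 21.8, 24.1 and 31.0 TPM, GY2 at 23.9, 24.3 and 26.2 TPM and GY4 at 1.82, 1.51 and 1.11 TPM. CG-1 thus exceeded GY1 in each library, with ranges far apart. P34, the seed vacuolar allergen, stood at 91.4 ± 7.64 TPM and VSPA, a vegetative storage protein, at 139 ± 13.1 TPM (SD, n = 3).

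Among the 8 protease inhibitor genes matched by name, 1 gene held most of the TPM. Inhibitor genes without such a name are not counted. KTI3 made up 92.0% of the 4756 ± 302 TPM summed over 8 inhibitor genes. A separate gene spelled KTI-3 (Glyma.16G211700) stood at 129, 220 and 205 TPM and KTI-2 at 103, 114 and 107 TPM. The Bowman-Birk type gene D-II, an inhibitor of trypsin and chymotrypsin that was paired by name through 50.1% of the joint span, stood at 73.7, 95.3 and 76.8 TPM. KTI1 averaged 4.45 ± 1.4 TPM, BBI-1 2.50 ± 1.10 TPM, BBI was at 0.197 TPM in library 2 and 0 counts in the others, and BBI-2 had no count. Counts of such related genes depend on how uniquely their fragments aligned.

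Among 8 lipoxygenases, enzymes that oxidise polyunsaturated fatty acids, LOX9 held 79.0% of the summed 570 ± 61.8 TPM. It stood at 510, 404 and 436 TPM. The seed isoform genes were lower: LOC547835, with the synonym LOX1.4, averaged 65.5 ± 4.76 TPM, LOX3 14.4 ± 2.37 TPM and LOX2 6.30 ± 0.715 TPM (SD, n = 3). LOX1.1, with the synonym L-1, averaged 1.62 ± 0.194 TPM.

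Of the 3 oleosin genes with a symbol, whose proteins coat oil bodies, P91 and P89 were high and unequal between libraries, and OLEO1 was near 0 (0, 9 and 0 counts). P91 (Glyma.16G071800) stood at 513, 1132 and 1173 TPM and P89 (Glyma.19G063400) at 463, 1088 and 1138 TPM. Libraries 2 and 3 were alike and library 1 was lower by over 2-fold for both genes. The 7 genes of the oil list other than P91 and P89, with OLEO1 among them, summed to only 74.8, 59.8 and 69.9 TPM. Library 1 was the highest. These 7 include the acyltransferase genes DGAT1A, at 11.5 ± 2.19 TPM, and DGAT1b, at 3.57 ± 0.700 TPM, whose enzymes add the last acyl chain of triacylglycerol. Without P89 and P91 the embryo markers summed to 1580, 1551 and 1672 TPM, so the gap of library 1 in that list lay in these oleosins.

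Genes that build and desaturate fatty acids were expressed throughout, at intermediate levels. All 14 genes of fatty acid synthesis stood at 10 TPM or more in every library, beside 30.5% of all genes. KASI, a condensing enzyme, led at 140, 154 and 179 TPM, followed by the acetyl-CoA carboxylase subunit genes ACCC-2 at 140 ± 13.8 TPM and ACCC-3 at 120 ± 18.3 TPM. Of 19 desaturases 18 stood at 1 TPM or more, beside 62.5% of all genes. The stearoyl-ACP desaturase SACPD-C stood at 109, 170 and 202 TPM and the related ACPD at 120, 122 and 129 TPM. The oleate desaturases split: FAD2-1B stood at 159, 152 and 168 TPM and FAD2-1A at 20.1, 14.2 and 17.6 TPM, with no overlap. The linoleate desaturases FAD3B, FAD3C and FAD3A lay close together at 65.7 ± 16.5, 57.1 ± 7.47 and 54.5 ± 11.2 TPM (SD, n = 3).

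Seed maturation and drying genes were present without dominating. Of 25 late embryogenesis and seed maturation protein genes, 18 stood at 1 TPM or more in every library and 3 at 100 TPM or more. Over all genes the shares were 62.5% and 3.29%. PM37 stood at 271, 331 and 362 TPM, PM30 at 165, 333 and 308 TPM and LEA5 at 110, 125 and 105 TPM. The list summed to 994, 1286 and 1270 TPM. Of its 13 members with a mean of 10 TPM or more, 3 spread over 2-fold, PM30, PM9 and PM32, each lowest in library 1, beside 376 of 15992 genes (2.35%) at that level in all. Among 17 heat shock genes the HSP90 chaperone genes led, HSP90-1 at 298, 334 and 346 TPM and HSP90-2 at 269, 281 and 291 TPM.

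**Figure D3:**
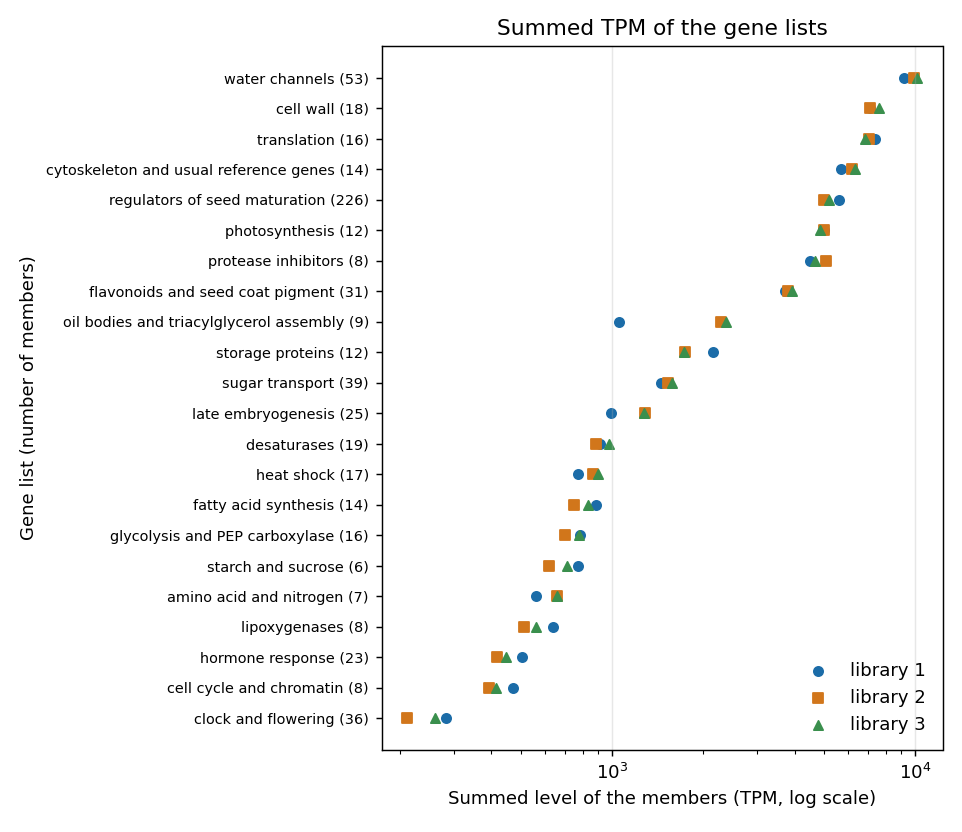
Summed TPM (log scale) of each gene list in the 3 wild-type libraries, with the number of members in brackets. Water channels, with genes added by synonym, lead at 9152 to 10130 TPM; the list of oil bodies and triacylglycerol assembly shows the widest gap, 1051 TPM in library 1 against 2280 and 2381.

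The median level of a member differed between the lists: 53.3 TPM for storage proteins, 27.8 TPM for desaturases, 21.7 TPM for flavonoid genes, 12.4 TPM for water channels and 3.4 TPM for clock and flowering genes, beside 4.17 TPM over all genes. Water channels held the largest sum of these lists only with the genes added by synonym, such as LOC100527509. By symbol alone they summed to 3891 TPM, below the cell wall list at 7262 TPM. The 53 genes summed to 9152, 9922 and 10130 TPM, 0.973% of the TPM, and 36 stood at 1 TPM or more, beside 62.5% of all genes. The 11 tonoplast genes (TIP) summed to 5829, 5859 and 5854 TPM, most of it LOC100527509, with SPCP1, a gene with TIP1 synonyms, at 1020, 1062 and 1009 TPM. The name of SPCP1 rests on a pair that shares 59.5% of the joint span. With an overlap of 80% the water channel list fell from 9735 to 8423 TPM. The 23 plasma membrane genes (PIP) summed to 3158, 3889 and 4096 TPM and were lowest in library 1. PIP1-7 led them at 625, 841 and 907 TPM, before PIP2-1 at 583, 698 and 751 TPM. The NIP genes were low, with 3 of 12 at 1 TPM or more.

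Of 39 sugar transporters 24 stood at 1 TPM or more, close to the 62.5% of all genes, and 9 had no count, against 12.8% of all genes. SWEET24, a member of the SWEET family that lets sugars leave cells, held 57.4% of the sum at 802, 885 and 919 TPM. SWEET39, a known contributor to soybean seed oil and size, stood at 170, 209 and 210 TPM, and SWEET11 at 79.1, 72.3 and 70.5 TPM. The ranges of SWEET24, SWEET39 and SWEET11 did not overlap. The median over all members was 4.4 TPM, beside 4.17 TPM over all genes in the table.

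The flavonoid list held genes for several steps of the path to proanthocyanidins. The 31 genes summed to 3728, 3796 and 3926 TPM, and 10 stood at 100 TPM or more, beside 3.29% of all genes. At 1 TPM or more stood 21, and 4 had no count in any library, close to the 62.5% and 12.8% of all genes. F3H, flavanone 3-hydroxylase, stood at 728, 698 and 709 TPM and DFR1, dihydroflavonol reductase, at 628, 531 and 595 TPM. The anthocyanidin synthase genes ANS3 and ANS2 stood at 366, 550 and 603 TPM and at 251, 426 and 464 TPM. ANR1, anthocyanidin reductase, ran the other way at 564, 405 and 405 TPM, and LAR1, leucoanthocyanidin reductase, stood at 232, 205 and 190 TPM. Library 1 was therefore the lowest for both ANS genes and the highest for ANR1 and LAR1. Chalcone synthase, the first enzyme of the path, was low by comparison: the 11 CHS genes summed to 118, 96.1 and 90.7 TPM, with CHS7 at 73.4, 61.1 and 58.9 TPM. The 2 isoflavone synthase genes (IFS) summed to 7.57, 9.29 and 8.49 TPM.

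In the cell wall list PRP1 and PRP3 outweighed the rest: the 13 expansin genes, which loosen walls, summed to 222, 259 and 298 TPM. Photosynthesis genes summed to 4985, 5001 and 4850 TPM, a mean of 4945 TPM that falls to 3117 TPM where a RefSeq pair must share 80% of the joint span, since LOC100805310 and RBCS1 are paired by less. Beside the chlorophyll-binding genes, RBCS1, a small subunit of the carbon-fixing enzyme, stood at 316, 320 and 309 TPM, and RBCS2 at 373, 184 and 180 TPM. Only library 1 had RBCS2 above RBCS1.

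Genes of primary carbon and nitrogen use stood at intermediate levels. LOC100788584, a sucrose synthase by synonym, stood at 266, 226 and 254 TPM and SS, also sucrose synthase, at 229, 196 and 219 TPM. Both names rest on pairs that share 57.7% and 79.4% of the joint span, and at 80% the starch and sucrose list fell from 700.2 to 237 TPM. The name of LOC547791 rests on 75.7%, and the glycolysis list fell from 752 to 477 TPM. GBSSIa, the granule-bound starch synthase, averaged 134 ± 23.6 TPM. LOC547791, a pyruvate kinase by synonym, averaged 234 ± 8.61 TPM and GAPDH 222 ± 14.7 TPM, while the PEP carboxylase genes PPC1 and PEPC16 averaged 34.9 ± 4.64 and 34.3 ± 1.95 TPM. LOC548082, a cytosolic glutamine synthetase by synonym, held 64.5% of the amino acid list at 363, 427 and 422 TPM. The asparagine synthetase genes AS1 and AS2 averaged 12.9 ± 0.929 and 12.4 ± 2.65 TPM (SD, n = 3).

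Cell cycle genes were expressed: all 8 genes of the cell cycle and chromatin list stood at 1 TPM or more, beside 62.5% of all genes. LOC548079, with the synonym PCNA, the sliding clamp of DNA replication, stood at 128, 109 and 109 TPM, and the mitotic cyclin CYCB1;1 at 92.5, 76.7 and 79.2 TPM. Each was highest in library 1. The translation list summed to 7342, 7042 and 6830 TPM, with RPL2 at 637, 726 and 738 TPM. Among genes often used as references, CYP2, a cyclophilin, stood at 858, 1174 and 1235 TPM, the tubulin TUBB2 at 397, 338 and 360 TPM, and the actin LOC100778206 at 276, 235 and 234 TPM. LOC100791065, a ubiquitin, had the smallest spread of these at 1645, 1667 and 1683 TPM.

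Regulators were led by MYB172 and LEC1-B, with overlapping ranges, before BZIP126. MYB172 was above LEC1-B in library 1 alone. Of 226 regulator genes 162 stood at 1 TPM or more, beside 62.5% of all genes, and 7 at 100 TPM or more, beside 3.29%. MYB172 stood at 734, 530 and 439 TPM. LEC1-B and LEC1-A, nuclear factor Y subunits that set the embryo programme, stood at 561, 556 and 572 TPM and at 236, 285 and 267 TPM. LEC1-B exceeded LEC1-A in every library. BZIP126 stood at 342, 298 and 317 TPM and BZIP53B at 220, 186 and 178 TPM. ABI3-1 and ABI3-2, B3-domain factors of seed maturation, were lower at 72.6 ± 10.3 and 41.5 ± 5.42 TPM. By family, 61 of 74 BZIP genes, 24 of 29 NF-Y genes and 50 of 71 MYB genes stood at 1 TPM or more, and 14 of 36 NAC genes did, beside 62.5% of all genes.

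Of 36 clock and flowering genes 21 stood at 1 TPM or more in every library, close to the 62.5% of all genes. At 10 TPM or more stood 6, beside 30.5% of all genes. None reached 100 TPM in every library, which is near the share of 3.29% of all genes. The list summed to 283, 211 and 260 TPM. LCL1, with the synonym LHY, a morning factor of the clock, led at 108, 70.2 and 89.7 TPM. E2, the soybean maturity gene related to GIGANTEA, averaged 13.5 ± 2.60 TPM and PHYB, a red-light receptor, 10.1 ± 0.861 TPM. In the hormone list the gibberellin genes led. GA20OX1, whose enzyme makes gibberellin precursors, stood at 213, 173 and 177 TPM, and GA2OX7, whose enzyme class inactivates gibberellin, at 61.3, 50.7 and 59.2 TPM.

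**Figure D4:**
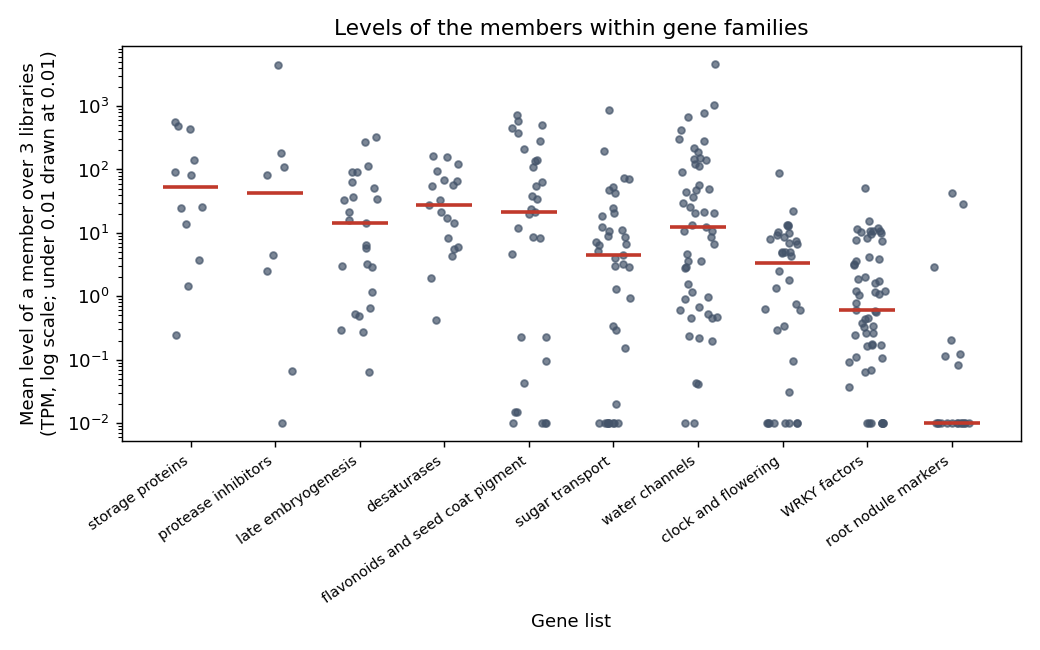
Mean TPM over 3 libraries (log scale) of each member of 10 gene lists, 1 point per gene, red bars at the list median; values under 0.01 TPM are drawn at 0.01. In several lists single genes such as KTI3, SWEET24 and LOC100527509 lie far above the median, and the median nodule marker lies at the bottom.

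The spread between libraries exceeded counting error at every level. The median CV of TPM fell from 23.9% among genes at 1 to 3 TPM to 10.6% at 100 to 300 TPM and 7.92% at 1000 TPM or more. Counting error alone would give 15.2%, 2.05% and 0.670% for the same genes, taking fragments as independent. Between libraries 2 and 3 alone, genes with a mean of 10 TPM or more had a median CV of 7.20%, against 13% for libraries 1 and 2 and 11.5% for 1 and 3.

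A spread over 2-fold was seen in 376 of the 15992 genes (2.35%). Library 1 was the farthest from the others in 359 of them, the lowest library in 305 and the highest in 68. Between libraries 2 and 3 only 5 genes differed by over 2-fold, against 252 between 1 and 2 and 316 between 1 and 3. Where the mean of 10 TPM is taken over the remaining pair of libraries only, the count of 376 falls to 3 without library 1 and to 242 without library 3. Among the 376 were 22 genes with a symbol, 17 lowest and 5 highest in library 1. Those lowest there include GRP (479, 1184 and 1233 TPM), P91, P89, PM30 and SRC1 (105, 222 and 218 TPM). The 5 highest were RBCS2, RPS13 (351, 211 and 161 TPM), CG-3 (134, 67.4 and 41.2 TPM), GASA19 (91.2, 42.5 and 49.6 TPM) and CHS9 (17, 11.7 and 7.72 TPM). The genes low in library 1 thus include oleosin and seed maturation genes. The seed coat markers summed to 5003 TPM there against 4709 and 4594. The seed coat gene SCB1, not among those markers, went the other way at 3913, 5365 and 5565 TPM. Embryo markers without P89 and P91 summed to 1580, 1551 and 1672 TPM. The storage genes summed to 2144, 1741 and 1728 TPM, highest in library 1. The part of tissue shares in the spread was not tested.

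The libraries also differed by exon length. In genes of over 500 to 750 bases library 2 lay above the mean of the other two by a median log2 of 0.16, and in genes over 5000 bases it lay below it (-0.33). Library 3 ran the other way, from -0.09 to 0.22 in the same length classes. Library 1 rose from -0.04 in the class of 500 to 750 bases to 0.17 at 3000 to 5000 bases and stood at 0.13 over 5000 bases. The 131 genes of 500 bases or less departed from these trends, with 0.21 for library 1, 0.06 for library 2 and -0.18 for library 3. When each library was centred within classes of exon length, 397 genes spread over 2-fold in place of 376.

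**Figure D5:**
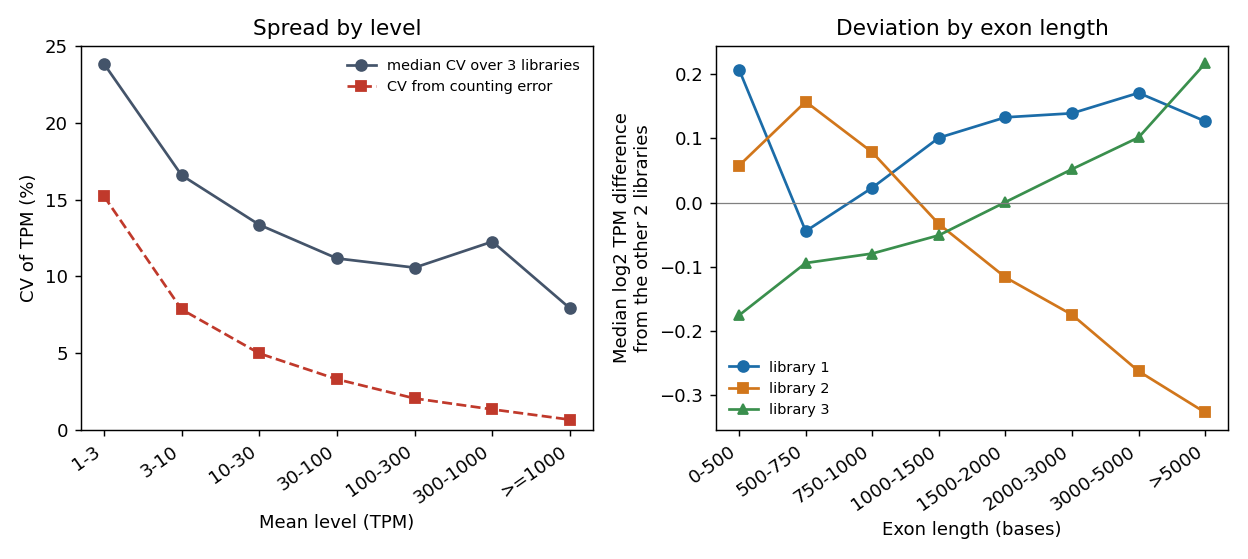
Left, median CV of TPM (%) over 3 libraries by mean level, with the CV that counting error alone gives. Right, median log2 TPM difference of each library from the mean of the other two by exon length; from the class of 500 to 750 bases on, library 2 falls and library 3 rises with length, while the CV stays above counting error at every level.

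Among 1766 genes at a mean of 100 TPM or more, the median CV was 11%. The 10 steadiest had CVs of 0.318% to 1.01%, which for 9 of them was below the CV that counting error gives. They include GME1 (Glyma.19G244600) at 144, 146 and 144 TPM and LOC100777560 at 705, 697 and 711 TPM. Of the 10 most variable, 9 were lowest and 1 was highest in library 1, and none has a symbol. LOC100813601 (Glyma.11G032800, chromosome 11, 2387073 to 2387827) led at 94.3, 569 and 445 TPM, and LOC100799823 followed at 29.4, 142 and 140 TPM. Glyma.13G260800 was the exception at 538, 216 and 195 TPM. The most variable genes had a median exon length of 748 bases and the steadiest 1586.5 bases.

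Shares of TPM were close to shares of expressed genes on most chromosomes. Chromosome 8 held 7.68 ± 0.0346% of the TPM (SD, n = 3) and 7.02% of the genes at 1 TPM or more, and chromosome 16 held 2.95 ± 0.0279% and 3.52%. Chromosome 11 held 6.22 ± 0.126% of the TPM with 5.28% of these genes and 13 of the 100 most abundant genes. Chromosome 16 held 1 of those 100. One directly adjacent pair lay in the top 100, LOC100306011 and LOC100500216 (Glyma.02G281400 and Glyma.02G281500, chromosome 2, 48207588 to 48208316 and 48211617 to 48212507). Both were highest in library 1, the first at 3090, 1684 and 1569 TPM. KTI3 lay 3 genes from LOC100798239, itself at 1864, 1781 and 1860 TPM.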

How the data were processed

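The deposited values are raw counts of paired-end fragments, which the authors obtained, per the file headers, with featureCounts 2.0.1 by summing exons of each gene of the annotation Gmax_508_Wm82.a4.v1; exon lengths are listed beside them. The command names no strand or multimapping option. HISAT2 and DESeq2 appear in the submitters' processing notes with no version. The table lists nuclear chromosomes and 160 genes on unplaced scaffolds, so TPM is relative to these genes.

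TPM was computed per library from counts and exon length with Python 3.11 (numpy, pandas), with no filter; TMM factors for an alternative came from edgeR 4.0.16. The count of 0 was taken to allow 3 counts. Each gene was paired with the protein-coding RefSeq gene (Glycine_max_v4.0) whose span shared 50% or more of their joint extent; positions are those of the deposited table. Lists were formed from symbols by pattern; 42 matches that stand, or may stand, for other genes were left out and 46 genes were added by synonym after values were seen. The members and lists were chosen with earlier results of these data known. Named genes are the 30 most abundant, the leading members of each list (any member for regulators and markers), and the 10 steadiest and 10 most variable at 100 TPM or more; genes outside this rule, such as those with a spread over 2-fold, were named after their values were seen. The measures were tried on simulated counts. No sequences are shown, and paralog and promoter comparisons were not made. Alternatives were another length, scaling, filter, unit, overlap and each library left out.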

Additional observations from a re-analysis of the deposited data

How the results depend on the processing

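No paired analysis was possible because the description covers 1 group and rests on no test. The number of genes at 1 TPM or more (29218 to 29933) and the number holding 50% of the TPM (1311 to 1583) moved by less than 1.5 times under another length, scaling, filter or set of libraries. In CPM (counts scaled to the library total), where long genes weigh more, 2529 genes held 50% and the 10 leading genes held 3.58%. The 376 genes with a spread over 2-fold became 75 at a mean of 100 TPM or more, and between 3 and 315 when 1 library was left out, lowest without library 1. TMM factors (TPM divided by them) gave 441 and median-of-ratios scaling 475. Leaving out a library gave 1429 to 1583 genes holding 50%, and 3.89% to 4.04% in the top 10. Of the 30 most abundant genes 21 were among the leading 30 by CPM and 28 with exon length less 200 bases. Of 40 list sums 33 moved by more than their SD in CPM, 7 of them to over 1.5 times and 3 to under 1 in 1.5. With an overlap of 80% in place of 50%, 16 sums moved, 5 of them to under 1 in 1.5. With symbol patterns alone 15 moved, 7 to under 1 in 1.5 and 2 to over 1.5 times. Both were added after the data were seen, as was the centring by exon length. Nodule markers summed to 442 TPM with patterns alone, which take in LBD transcription factors. The causes were not tested. Comparisons of paralog identity and promoter motifs were not run.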

Other observations

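Further families, chosen after their values were seen, extend the picture. Of 32 GASA genes, small cysteine-rich peptides often linked to gibberellin, 11 stood at 100 TPM or more in every library, beside 3.29% of all genes. GASA28 led at 651, 825 and 674 TPM and the family summed to 4764, 4492 and 4035 TPM. The 18 genes of 14-3-3 proteins, which bind phosphorylated partners, summed to 3419, 3064 and 3034 TPM, with SGF14I at 580, 381 and 403 TPM. The 12 antioxidant genes all stood at 10 TPM or more, beside 30.5% of all genes. They were led by the ascorbate peroxidase APX2 at 1114, 1098 and 1029 TPM and the dehydroascorbate reductase DHAR4 at 1077, 1054 and 1005 TPM. All 21 GRF genes stood at 1 TPM or more, beside 62.5% of all genes, and 12 at 10 TPM or more, beside 30.5%. None reached 100 TPM in every library, which is near the share of 3.29% of all genes.

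Of the next families fewer members stood at 1 TPM or more in every library than the 62.5% of all genes, by little for the heat shock factors. Of 78 CRK genes, a family of receptor-like kinases, 13 stood at 1 TPM or more and 34 had no count. Of 28 ALMT genes 7 did, and of 13 AMT genes 2, where AMT4.5 held 73.9% of the family's sum. Of 57 WRKY factors 24 did, led by WRKY22 at 56.3, 46.5 and 52.1 TPM. Of 26 LBD factors 8 did, and LBD37 stood at 174, 162 and 167 TPM. The name of LBD37 rests on a pair that shares 70.2% of the joint span, and at 80% the family's sum fell from 369 to 94.2 TPM. Of 36 heat shock factors 21 did, close to the share of all genes.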
